A study of Homo sapiens with 16 samples.

Results

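The cytosolic ribosome is built from a large and a small subunit, each made of ribosomal RNA and a set of proteins that are mostly encoded by single genes scattered over the chromosomes. The genes described here are those whose symbol names such a protein, RPL for the large and RPS for the small subunit, together with RPLP0, RPLP1, RPLP2 and RPSA. Kinases with the prefix RPS6K, pseudogenes and numbered further copies of a symbol were left out. The rule found 84 genes among 33121 entries of the count table, 52 of the large and 32 of the small subunit, and it used no measured value.

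RNA had been selected by its poly-A tail and sequenced as pairs of reads of 100 bases in HAP1, a near-haploid human cell line. The 16 libraries formed 4 groups of 4. Cells with the genotype SLC30A10_delta, which lack a manganese exporter and are called the SLC30A10 knockout, were set against SLC30A10+/+ cells, called the SLC30A10 control. A second knockout, of another gene, had a second control of its own. By their identifiers, both controls are a single cell line and each knockout is a line of its own, and how many clones each holds is not given in the sources used here. The labels give no treatment, date or batch and do not say whether the replicates were separate cultures, so p-values measure the spread between these libraries, which may be technical.

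Ribosomal protein mRNAs belong to the most abundant mRNAs of a growing cell. Nearly all of them begin with a C followed by an unbroken run of pyrimidines, the 5′ terminal oligopyrimidine or TOP tract, through which the mTOR pathway and the protein LARP1 control their translation together with that of many translation factors. Mature ribosomes also need a large set of assembly factors, which are not part of the finished particle. A few ribosomal proteins have a second gene, a paralog marked L in the symbol. For some of these pairs the product of the paralog can stand in for the usual protein.

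Runs of pyrimidines near the annotated start are frequent in these genes, and some examples are printed before any level is compared. The sequences run from 15 bases before to 15 bases after an annotated start in RefSeq, assembly GRCh38.p14. The longest run of C and T near the start is in capitals. Where a gene has several annotated starts, the start with the longest run was taken, here and in the counts of genes below. RPS24 and RPS23 carry long runs, RPL41 a shorter one, and the other 6 are 3 genes each followed by its paralog.
RPS24, chr10:78033848-78033877, plus strand: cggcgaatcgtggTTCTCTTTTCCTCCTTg
RPS23, chr5:82278340-82278369, minus strand: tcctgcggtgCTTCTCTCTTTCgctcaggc
RPL41, chr12:56116618-56116647, plus strand: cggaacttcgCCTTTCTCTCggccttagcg
RPL26, chr17:8383179-8383208, minus strand: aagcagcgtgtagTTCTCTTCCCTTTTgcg
RPL26L1, chr5:172958714-172958743, plus strand: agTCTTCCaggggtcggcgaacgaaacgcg
RPS27, chr1:153990747-153990776, plus strand: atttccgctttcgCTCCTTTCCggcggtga
RPS27L, chr15:63157463-63157492, minus strand: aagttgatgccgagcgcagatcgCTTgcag
RPL22, chr1:6199581-6199610, minus strand: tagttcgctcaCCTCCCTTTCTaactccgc
RPL22L1, chr3:170870181-170870210, minus strand: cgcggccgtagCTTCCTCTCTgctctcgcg
The runs of RPL26L1 and RPS27L are 6 and 3 bases long, against 14 and 9 in RPL26 and RPS27, whereas RPL22L1 keeps a run of 10 bases beside 11 in RPL22. Of the 67 genes with a start sequence in the table used, 53 (79.1%) had a run of at least 8 pyrimidines reaching within 10 bases of the start, against 18.3% of 27305 genes with a start sequence. Counted over single starts, the shares were 69.9% of 83 starts of ribosomal protein genes and 15.2% of 35116 starts of all genes. Most of the printed runs begin before the annotated start, and that of RPL26L1 also ends before it. A run in this window is a match of letters and does not show that an mRNA begins there.

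Library totals lay between 16058856 and 16648151 counts. SLC30A10 itself was barely detected, with 6 to 9 counts in its control and 3 to 11 counts in the knockout, so its RNA did not show the deletion and the group names follow the labels. The unit CPM stands for counts per 1000000 after scaling of the library sizes. Replicate 1 of the second control, replicate 2 of the second control and replicate 1 of the SLC30A10 knockout were the 3 libraries with the highest share of ribosomal protein counts.

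Of the 84 genes, 81 passed the filter on low counts. RPL10L and RPL3L, paralogs of RPL10 and RPL3, did not pass, with 0 counts and with 1 to 5 counts in each library. RPS9, which encodes a protein of the small subunit, was listed at 0 in every library, and among its 9 numbered copies the highest count in any library was 6. The symbol RPS18 held 21.6 to 31.9 CPM, while most of its counts stood under a numbered copy with 8755 to 11890 counts per library. Genes with near-identical pseudogenes, or with a read-through transcript as for RPS10, RPL17 and RPL36A, may have lost reads in counting, so their levels are uncertain. Per 1000 bases of transcript, RPLP1 was among the highest at 2156 CPM, and the lowest levels were those of RPS28 at 5.36, RPS27L at 9.66 and RPS10 at 14.2 CPM. The transcript taken for RPS27L is 6434 bases long, which lowers its value on this scale.

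Together the ribosomal protein genes held 5.23% ± 0.0755 (SD, n = 4) of all counts in the SLC30A10 control, with a range of 5.13% to 5.30% over its libraries. The share was 5.96% ± 0.152 (SD, n = 4) in the SLC30A10 knockout, 5.97% ± 0.272 (SD, n = 4) in the second control and 5.85% ± 0.0651 (SD, n = 4) in the second knockout. The lowest of these 12 libraries, replicate 3 of the second control, held 5.71%. The SLC30A10 control thus lay below each of the other 12 libraries, while the other 3 groups overlapped. Both subunits showed this order, with 3.45% in the SLC30A10 control against 3.83% to 3.91% in the other groups for the large subunit, and 1.79% against 2.02% to 2.11% for the small subunit.

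**Figure D1:**
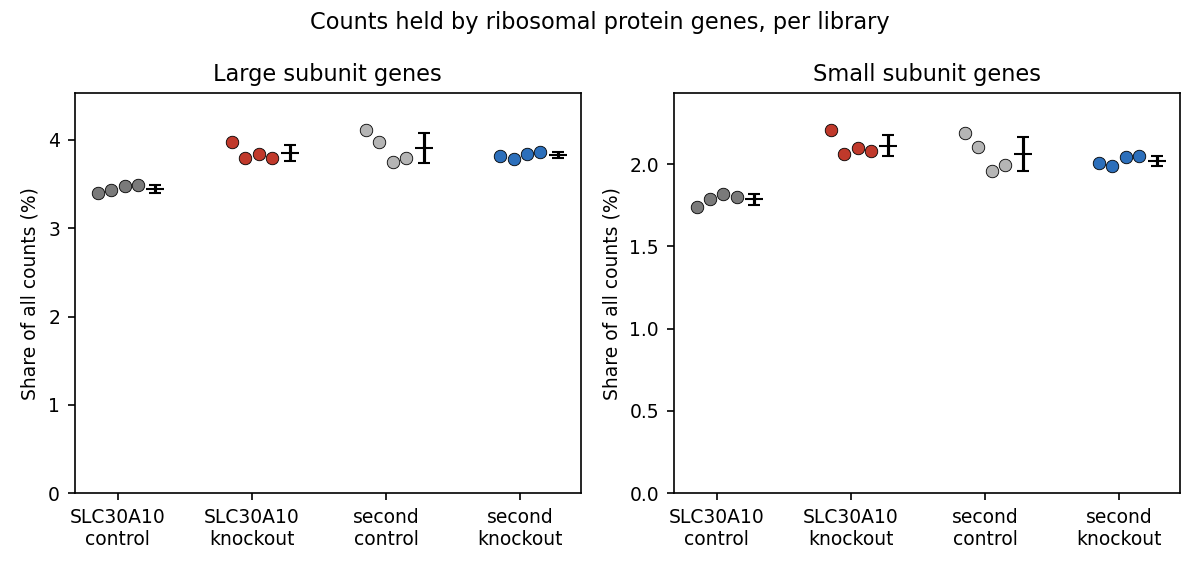
Share of all counts (%, linear axes from 0) held by large subunit genes (left) and small subunit genes (right), with a point for each of the 16 libraries and a bar for the mean ± SD of each group of 4. The SLC30A10 control lies below the other 12 libraries in both panels, at 3.39% to 3.49% for the large and 1.74% to 1.82% for the small subunit.

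The first comparison asks what changes when SLC30A10 is deleted. Ribosomal protein genes were mostly higher in the knockout: 66 of 81 rose, 2 fell and 13 did not pass the test (edgeR quasi-likelihood, adjusted p under 0.05). Of all 15569 tested genes 41.4% passed, 21.2% as higher and 20.2% as lower. The rises were small, with a median log2 fold change of 0.19 against -0.0048 over all tested genes, and 19 of the 81 genes differed by over 0.3 on the log2 scale. Both subunits took part, with 41 rises and 2 falls among 50 large subunit genes and 25 rises and no fall among 31 small subunit genes. Neither edgeR at an unadjusted p under 0.05 nor the DESeq2 Wald test gave a fall among the small subunit genes (0 by each). For 61 of the 81 genes all knockout libraries lay to one side of all control libraries, against 38.3% of all tested genes. The genes that did not pass were RPL7L1, RPL8, RPL12, RPL26L1, RPL34, RPL37, RPL41, RPS2, RPS7, RPS27A, RPS27L, RPS28 and RPS29.

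These counts depended on which control libraries were used. With both control sets pooled, 27 of the 66 still rose, 1 gene fell and the median was 0.10. Of all 15569 tested genes, 5004 passed with that pooling, higher or lower. Against the second control alone, an exchange chosen after seeing the data, 17 of the 66 (25.8%) rose, as did 2 others, 9 genes fell and the median was 0.02. In that exchange 6903 of all 15569 tested genes passed. The 17 were RPL5, RPL6, RPL7, RPL9, RPL10, RPL11, RPL17, RPL22, RPL24, RPL36A, RPL39, RPL39L, RPS3, RPS4X, RPS10, RPS23 and RPS24.

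The largest rise was that of RPS4X, a protein of the small subunit encoded on the X chromosome (chrX:72272042-72277248, GRCh38.p14). Its level was 1007, 1033, 1057 and 1017 CPM in the SLC30A10 control and 1636, 1635, 1551 and 1554 CPM in the knockout. The second control held 1174, 1102, 1120.3 and 1128 CPM and the second knockout 1133, 1105, 1135 and 1116 CPM. All knockout libraries lay far above the other 12, and the log2 fold change was 0.63 ± 0.03 (SE; edgeR adjusted p = 1.21e-14). Against the second control it was 0.50.

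RPL39, a small protein that lines the exit tunnel of the large subunit, lies on the same chromosome (chrX:119786504-119791630). It had 54.5, 58.6, 58.2 and 61.5 CPM in the control and 106, 78.2, 85.6 and 87.9 CPM in the knockout. These groups did not overlap, and the log2 fold change was 0.62 ± 0.09 (SE; edgeR adjusted p = 2.72e-06). The second control spread widely, from 56.9 to 82.8 CPM, so that its highest library exceeded the lowest one of the SLC30A10 knockout.

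RPL10, which joins the large subunit late in its maturation (chrX:154398065-154402339), had 732, 811, 837 and 781 CPM in the control and 1227, 997, 1115 and 1086 CPM in the knockout. It rose by 0.49 ± 0.06 (SE; edgeR adjusted p = 8.73e-07) on the log2 scale without overlap of the groups. RPL36A (chrX:101391011-101396155) had 20.8, 18.8, 21.3 and 18.4 CPM in the control and 23.6, 24.9, 24.5 and 28.8 CPM in the knockout. Its log2 fold change was 0.36 ± 0.08 (SE; edgeR adjusted p = 0.000567). Unlike the other 3, it was higher in the SLC30A10 control than in the second control, by 0.63 ± 0.09 on the log2 scale.

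These 4 are the only ribosomal protein genes of the set on the X chromosome, and the chromosome around them moved in the same direction. Over the 494 other tested X genes the median log2 fold change in the SLC30A10 knockout was 0.36, and 434 were above 0. The 20 nearest tested genes had medians of 0.35 around RPS4X, 0.31 around RPL39, 0.40 around RPL10 and 0.42 around RPL36A. The part of the chromosome in the rise of these genes was not tested.

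RPL13, of the large subunit (chr16:89560657-89566829), was 1 of the 2 genes that fell. It had 1030.3, 1027, 1098 and 1081 CPM in the control and 992, 917, 1004 and 959.7 CPM in the knockout, a log2 fold change of -0.13 ± 0.04 (SE; edgeR adjusted p = 0.0113). The second control and the second knockout lay higher, at 1164 to 1308 and 1164 to 1195 CPM. The 20 nearest tested genes had a median of -0.55, and 19 of them passed the test, a part in the fall that was not tested. Without replicate 2 of the knockout the adjusted p of RPL13 was 0.056.

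**Figure D2:**
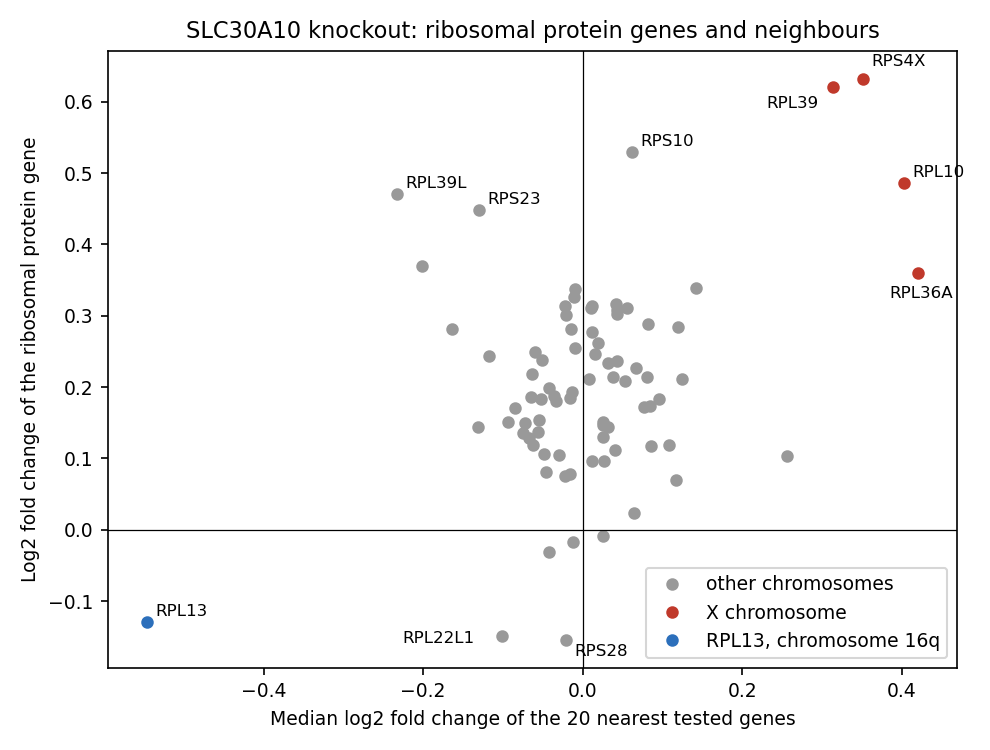
Log2 fold change of each of the 81 tested ribosomal protein genes in the SLC30A10 knockout (vertical axis) against the median log2 fold change of its nearest tested neighbours that are not ribosomal protein genes (horizontal axis; 20 neighbours for each gene but RPL8, with 19, and RPL35A, with 12). The 4 X-linked genes stand to the right with neighbour medians of 0.31 to 0.42, RPL13 stands to the left at -0.55, and for the other 76 genes the neighbour medians run from -0.23 to 0.26.

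Away from the X chromosome, the largest rises were spread over several chromosomes. RPS23, near the decoding centre of the small subunit, carries the pyrimidine run printed above. It had 786, 776, 797 and 776 CPM in the control and 1075, 1079, 1049.6 and 1074 CPM in the knockout. The groups were far apart, with a log2 fold change of 0.45 ± 0.03 (SE; edgeR adjusted p = 9.06e-12), while the 20 nearest genes had a median of -0.13. RPS24, another small subunit protein with a long run, rose from 869 ± 5.17 to 1079.8 ± 33.3 CPM (SD, n = 4). RPS10 rose from 7.43, 7.53, 9.88 and 7.93 CPM in the control to 10.9, 10.9, 11.2 and 14.3 CPM in the knockout, but its level was low and its annotation overlaps a read-through transcript. RPS3A rose from 315 ± 10.3 to 407 ± 11.7 CPM (SD, n = 4), although the second control held 402 ± 12.2 CPM, and the difference from that group was 0.02 on the log2 scale.

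The paralogs did not follow a single course. RPL39L, the paralog of RPL39, had 25.3, 24.3, 25.4 and 26.2 CPM in the control and 35.1, 36.4, 33.8 and 34.9 CPM in the knockout. It rose by 0.47 ± 0.06 (SE; edgeR adjusted p = 3.06e-07) without overlap, against a median of -0.23 among its 20 nearest genes. RPL22L1 fell where RPL22 rose. RPL22 held 425 ± 6.79 CPM (SD, n = 4) in the control and 538 ± 11.8 CPM (SD, n = 4) in the knockout, and its log2 fold change was 0.34 ± 0.04.

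RPL22L1 had 99.4, 103, 105 and 96.3 CPM in the control and 97.4, 87.2, 87.9 and 91.7 CPM in the knockout. These groups overlapped in 1 library, and the log2 fold change was -0.15 ± 0.05 (SE; edgeR adjusted p = 0.0241). Leaving out replicate 2 or 3 of either group ended this call, with adjusted p from 0.054 to 0.080. Against the second control it was -0.02.

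The other 3 tested paralogs did not pass the test while their partners rose. RPL7L1 changed by -0.02 ± 0.04 against 0.28 ± 0.04 for RPL7 on the log2 scale. RPL26L1 changed by 0.07 ± 0.05 against 0.31 ± 0.04 for RPL26. RPS27L changed by -0.03 ± 0.06 against 0.31 ± 0.06 for RPS27. Between the control sets, RPL7, RPL26 and RPS27 were at -0.15, -0.25 and -0.34 in the SLC30A10 control relative to the second control. Their paralogs were at 0.22 for RPL7L1, 0.09 for RPL26L1 and 0.07 for RPS27L. Against the second control RPL7 still rose, RPL26 was no longer among the rises and RPS27 was at -0.03. The contrasts thus depended on the control set used. The differences within these pairs were not tested. The runs near the start were short in all 3, with 6 bases in RPL26L1, 3 in RPS27L and 2 in RPL7L1, whose sequence is not printed above. RPL22L1, with 10 bases, fell, and RPL39L had no start sequence.

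Over the genes with a start sequence, the run near the start went with a small difference in the median. The 52 tested genes with a run of at least 8 pyrimidines had a median log2 fold change of 0.21 in the SLC30A10 knockout, with 45 rises and 2 falls. The 13 genes with a shorter run had a median of 0.17, with 8 rises and no fall. They include RPL7L1, RPL26L1 and RPS27L, which did not pass, and the X-linked RPS4X, which rose most. The 16 genes without a start sequence had a median of 0.19, with 13 rises and no fall. The number of pseudogenes divided the set as little: the medians were 0.21 for 40 genes with at least 10 annotated pseudogenes and 0.18 for the other 41.

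**Figure D3:**
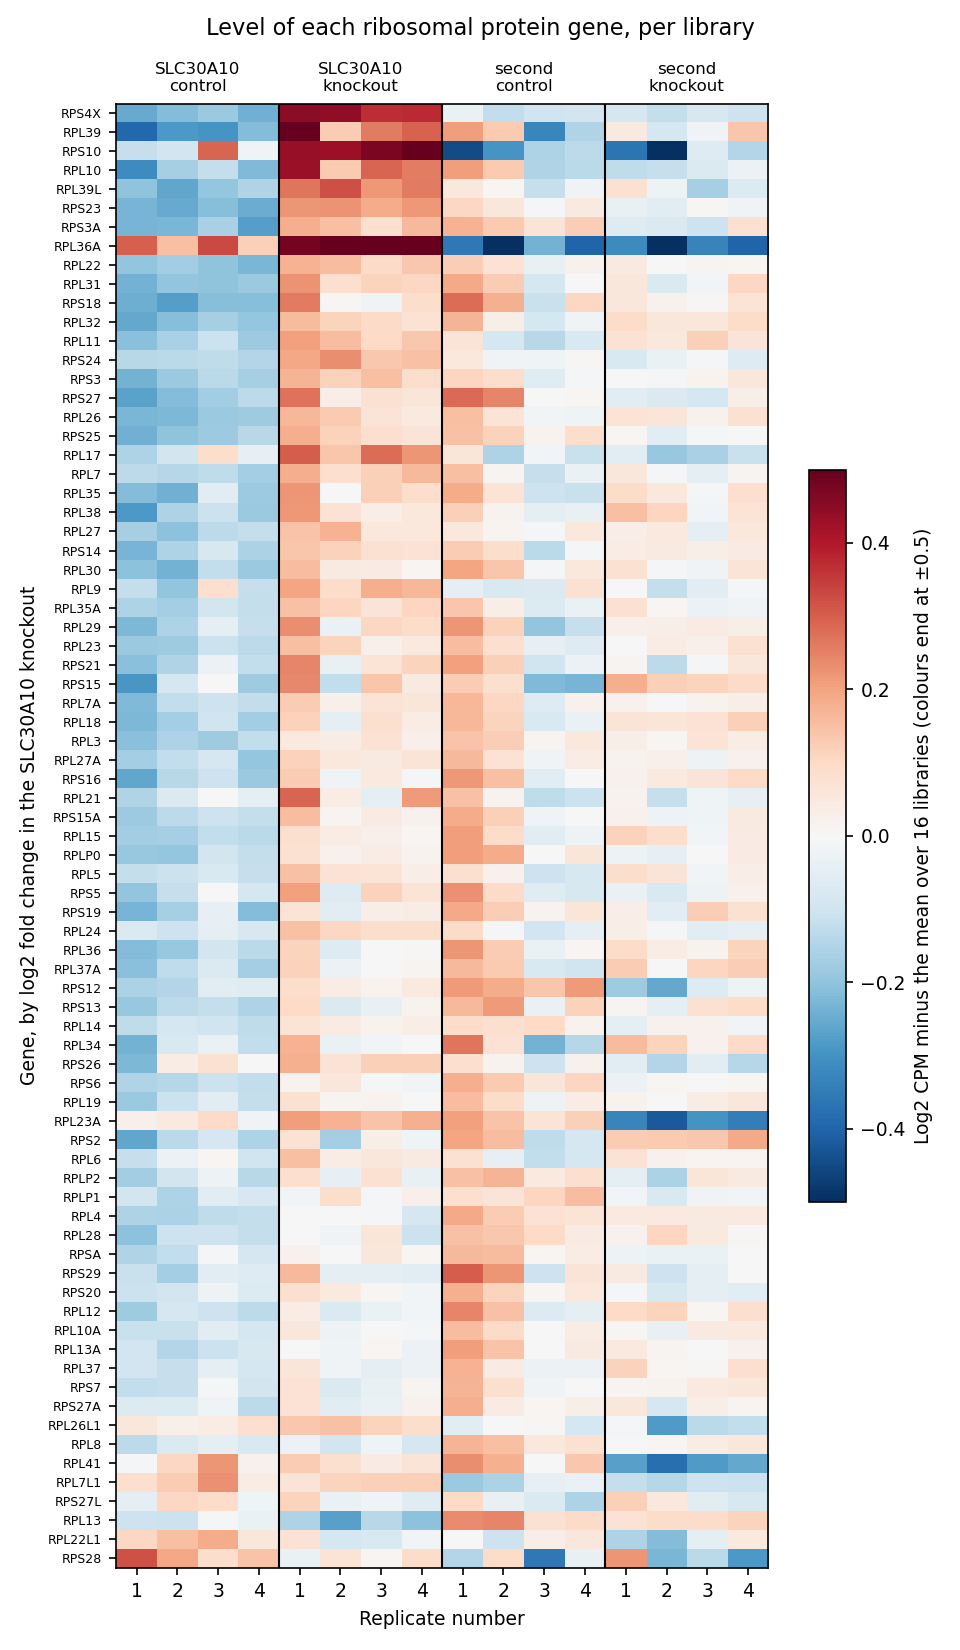
Log2 CPM of 77 of the tested ribosomal protein genes in each of the 16 libraries, minus the mean of the gene over all libraries (colour, ending at ±0.5), with genes ordered by log2 fold change in the SLC30A10 knockout and libraries by group and replicate number. Most rows are blue throughout the SLC30A10 control, and RPL23A and RPL41 are blue in the second knockout.

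The second knockout gave a different picture. Of the 81 genes, 1 rose, 11 fell and 69 did not pass the test, a share of 14.8% beside 13.7% of all tested genes (6.67% higher and 7.03% lower). The median log2 fold change was -0.04, against -0.0024 over all tested genes. For 9 genes the libraries of the groups were fully apart, against 16.3% of all tested genes. Among the falls were 5 large subunit genes and 6 small subunit genes.

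RPL23A, at the mouth of the exit tunnel of the large subunit (chr17:28719985-28724359), fell most. It had 338, 324, 308 and 319 CPM in the second control and 233, 219, 238 and 230.5 CPM in the second knockout. Those knockout libraries were the lowest of all 16, and the log2 fold change was -0.48 ± 0.04 (SE; edgeR adjusted p = 1.31e-10). In the SLC30A10 knockout RPL23A rose, by 0.14 ± 0.04. With the control sets pooled, or against the second control, RPL23A was no longer among the genes that rose in that knockout.

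RPL41, the smallest ribosomal protein (chr12:56116633-56117967), had 90.5, 87.1, 77.0 and 84.7 CPM in the second control and 63.8, 59.4, 63.3 and 64.6 CPM in the second knockout. Again the knockout libraries were the lowest of all 16, with a log2 fold change of -0.43 ± 0.05 (SE; edgeR adjusted p = 5.67e-07). RPL41 did not pass the test in the SLC30A10 knockout, at -0.01 ± 0.05. The 20 nearest genes had medians of -0.04 around RPL23A and -0.05 around RPL41. With the control sets pooled, RPL23A and RPL41 were the 2 genes that still fell, by 0.44 and by 0.41 on the log2 scale.

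RPS12, of the small subunit, had 480.3, 471, 456 and 480.5 CPM in the second control and 366, 348, 397 and 408 CPM in the second knockout, a log2 fold change of -0.31 ± 0.04 (SE; edgeR adjusted p = 3.18e-06). The groups did not overlap, but the SLC30A10 control, at 385 ± 14.4 CPM (SD, n = 4), overlapped the knockout. With the control sets pooled the adjusted p of RPS12 was 0.086. All 3 proteins of the stalk, which recruits translation factors to the large subunit, fell by a little: RPLP0 changed by -0.12, RPLP1 by -0.13 and RPLP2 by -0.14 on the log2 scale. The edgeR adjusted p of RPLP2 was 0.0444, and it missed the threshold with library totals alone, at 0.058, and with the DESeq2 Wald test, at 0.055. Against the SLC30A10 control the 3 lay above 0, at 0.14 ± 0.04 for RPLP0 (edgeR adjusted p = 0.00437), 0.06 for RPLP1 and 0.08 for RPLP2, where RPLP1 and RPLP2 did not pass.

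The other falls were those of RPS27 at -0.18, RPS3A at -0.16, RPS20 at -0.14, RPS6 at -0.12 and RPSA at -0.12. Against the SLC30A10 control these 5 lay above 0 as well: RPS27 rose by 0.15, RPS3A by 0.19 and RPS6 by 0.13, while RPS20 at 0.03 and RPSA at 0.07 did not pass. Of the 11 falls, 8 thus lay above 0 with that control, 4 of them past the threshold, RPS12 was at -0.02, and RPL23A and RPL41 still fell. RPS6 is the substrate of the S6 kinases. RPL11, which with RPL5 binds the 5S ribosomal RNA and can restrain MDM2, was the 1 gene that rose. It had 1094, 986, 950.0 and 994 CPM in the second control and 1101, 1085, 1138 and 1095 CPM in the second knockout, a log2 fold change of 0.13 ± 0.04 (SE; edgeR adjusted p = 0.0196). The groups overlapped in 1 library, since replicate 1 of the second control lay among the knockout libraries.

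Single libraries or the scaling decided several of these calls. With median-of-ratios size factors, or with ribosomal protein genes left out of the TMM scaling, 8 genes fell instead of 11. Without replicate 1 of the second control, 5 genes rose and 6 fell. Without its replicate 2, or without replicate 1 of the second knockout, 7 genes fell, and without replicate 2 of that knockout 6 fell. The rise of RPL11 was lost without replicate 2, 3 or 4 of the second control or replicate 3 of the knockout, with adjusted p from 0.051 to 0.078. Set against the SLC30A10 control, the second knockout had 56 ribosomal protein genes higher and 8 lower, with a median of 0.15. In that comparison 7445 of all 15569 tested genes passed.

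**Figure D4:**
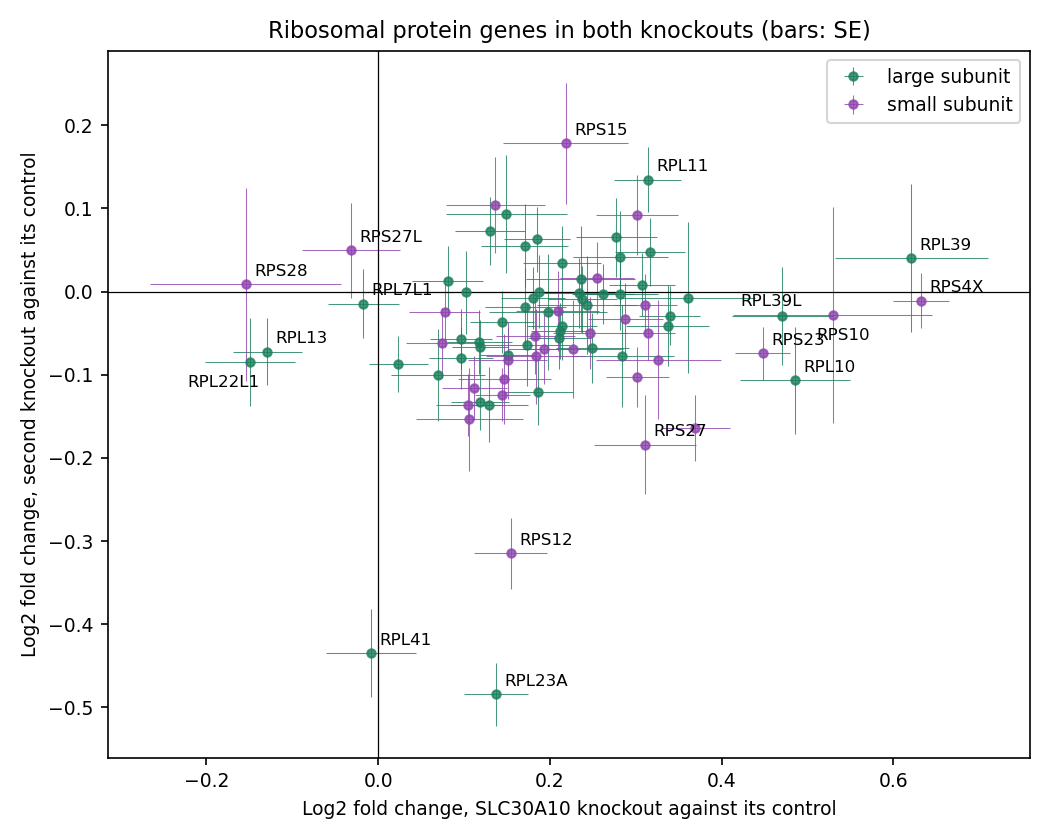
Log2 fold change ± SE of each tested ribosomal protein gene in the SLC30A10 knockout (horizontal axis) and in the second knockout (vertical axis), each against its own control set, with large subunit genes in green and small subunit genes in purple. Most genes lie right of 0 on the horizontal axis and near 0 on the vertical axis, while RPL23A, RPL41 and RPS12 lie lowest, at -0.48, -0.43 and -0.31.

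The knockout effects were also compared with each other, as the difference of their log2 fold changes. It was above 0 with an adjusted p under 0.05 for 62 of the 81 genes and below 0 for none, beside 31.3% of all tested genes (16.7% higher and 14.6% lower). At an unadjusted p under 0.05 the edgeR test gave 68 and 0, and the DESeq2 Wald test gave 62 and 0 after adjustment. The median difference was 0.24. Each difference includes the gap between the SLC30A10 control and the second control with its sign turned, and the median of that gap was -0.19. The part of the gap in these differences was not tested. The largest differences were those of RPS4X at 0.64 ± 0.05, RPL23A at 0.62 ± 0.05, RPL10 at 0.59 ± 0.09 and RPL39 at 0.58 ± 0.13. For RPL13 the difference was -0.06 ± 0.06 and for RPL22L1 -0.06 ± 0.07, and neither passed the test.

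Ribosomal protein genes also differed between the control sets, which carry neither deletion. In the SLC30A10 control, 63 of the 81 genes were lower than in the second control and 3 were higher, beside 39.3% of all tested genes (18.5% higher and 20.8% lower). The median was -0.19. This comparison shares the SLC30A10 control libraries with the first one, so the counts are not independent of each other. For 39 of the 81 genes every SLC30A10 control library lay below all 12 other libraries. How many of all tested genes show this pattern was not counted, so this number has no background beside it. Control libraries did not overlap for 55 genes, against 36.3% of all tested genes.

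The lowest values relative to the second control were those of RPS18 at -0.36 ± 0.07, RPS3A at -0.35 ± 0.04 and RPS27 at -0.34 ± 0.06. For RPS3A the SLC30A10 control held 314, 314, 329 and 304 CPM and the second control 415, 404, 386 and 401 CPM. The SLC30A10 knockout held 407 ± 11.7 CPM and the second knockout 358 ± 20.2 CPM (SD, n = 4), so the mean of the first lay within the range of the second control and that of the second below it. The 3 genes that were higher in the SLC30A10 control were RPL36A at 0.63 ± 0.09, RPS28 at 0.30 ± 0.11 and RPL7L1 at 0.22 ± 0.04. For RPS28, at 5.48 to 8.83 CPM in all libraries, the call was lost without replicate 1 or 2 of the SLC30A10 control or replicate 1 or 3 of the second control.

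Other genes of ribosome production were followed by lists. The first holds 4 ribosomal proteins whose symbols fall outside the rule, among them FAU, GNB2L1 and RPL36AL. In the SLC30A10 knockout FAU rose by 0.26 ± 0.04 and GNB2L1, the scaffold protein RACK1, rose by 0.14 ± 0.04 on the log2 scale, while RPL36AL changed by -0.03 ± 0.05. Against the second control neither FAU, at 0.02, nor GNB2L1, at 0.04, passed the edgeR test. The rises of 2 of the 4 genes are a share of 50% beside 41.4% of all tested genes. None of the 4 passed the edgeR or the DESeq2 test in the second knockout, beside 13.7% of all tested genes by edgeR. At an unadjusted p under 0.05, 1 was lower there.

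The second list holds translation factors and other mRNAs known to carry a TOP tract. Of its 22 genes, 14 rose and 1 fell in the SLC30A10 knockout, a share of 68.2% beside 41.4% of all tested genes, with a median of 0.13. In the second knockout none rose and 4 fell by edgeR and by DESeq2, a share of 18.2% beside 13.7% of all tested genes, with 0 higher and 6 lower at an unadjusted edgeR p under 0.05. Between the control sets 2 were higher and 11 lower in the SLC30A10 control, a share of 59.1% beside 39.3% of all tested genes. The elongation factor EEF1G rose by 0.24 ± 0.03 and the initiation factor EIF2S3, an X-linked gene, by 0.48 ± 0.03 in the SLC30A10 knockout. Against the second control EEF1G was at 0.07 and did not pass, while EIF2S3 still rose, by 0.49. In the second knockout TPT1 and EEF1B2 each fell by 0.24 and EEF1A1 fell by 0.15 on the log2 scale. Against the SLC30A10 control EEF1A1 was at 0.08 and did not pass, while TPT1 and EEF1B2 still fell, by 0.11 and 0.17.

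Of 49 ribosome assembly factors, 5 rose and 12 fell in the SLC30A10 knockout, with a median of -0.04. This is a share of 34.7%, beside 41.4% of all tested genes. FBL, the methyltransferase of the box C/D particles, rose by 0.30 ± 0.04, while UTP20 and MDN1 fell by 0.41 and 0.33 on the log2 scale. In the second knockout none rose and 1, EFTUD1, fell by edgeR and DESeq2, a share of 2.04% beside 13.7% of all tested genes, with 2 higher and 4 lower at an unadjusted edgeR p under 0.05. EFTUD1 lost its call with library totals alone and without any of 7 single libraries of that experiment, and against the SLC30A10 control it was at 0.03. Between the control sets 43 of the 49 were higher in the SLC30A10 control and 2 were lower, a share of 91.8% beside 39.3% of all tested genes, with a median of 0.34, while the ribosomal proteins had a median of -0.19. Set against the second control, UTP20 was at 0.11 ± 0.06 and MDN1 at -0.04 ± 0.04 in the SLC30A10 knockout, and neither passed the test, while FBL still rose, by 0.17 ± 0.04.

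RNA polymerase I, which transcribes the ribosomal RNA genes, and its factors gave 1 rise and 3 falls among 14 tested genes in the SLC30A10 knockout, a share of 28.6% beside 41.4% of all tested genes, with a median of 0.0044. TAF1C, a promoter selectivity factor, fell by 0.76 ± 0.06, and its gene lies on 16q as RPL13 does. POLR1A, the largest subunit of the polymerase, and UBTF, which binds the ribosomal RNA genes, fell by 0.26 and 0.16. Against the second control TAF1C still fell, by 0.54, but POLR1A rose by 0.23 ± 0.06 (edgeR adjusted p = 0.00257) and UBTF was at 0.10 and did not pass. MYC rose in the second knockout by 0.43 ± 0.07 and was the 1 gene of this list that passed there, 7.14% beside 13.7% of all tested genes. Between the control sets 8 were higher and 1 lower in the SLC30A10 control, with a median of 0.22. That share of 64.3% stands beside 39.3% of all tested genes.

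Of 12 dedicated chaperones and importers of ribosomal proteins, 4 rose and 3 fell in the SLC30A10 knockout, a share of 58.3% beside 41.4% of all tested genes. TSR2, the chaperone of RPS26 and an X-linked gene, rose by 0.31 ± 0.05, beside the median of 0.36 over the other X genes. IPO7, an importer, rose by 0.18 ± 0.04, but against the second control it was at 0.05 and did not pass. In the second knockout none rose and 1, IPO7, fell by edgeR and DESeq2, 8.33% of the list beside 13.7% of all tested genes. An unadjusted edgeR p under 0.05 gave the same counts. Against the SLC30A10 control IPO7 was at 0.00495 and did not pass. Of 16 genes that control the translation of TOP mRNAs, 2 rose and 5 fell in the SLC30A10 knockout, and 2 rose and 1 fell in the second knockout. These shares of 43.8% and 18.8% stand beside 41.4% and 13.7% of all tested genes. EIF4EBP1, a repressor of cap-dependent translation, changed by -0.24 ± 0.07 and by 0.30 ± 0.07 in these comparisons. Both values depend on the control set: the second was -0.04 against the SLC30A10 control. The first rests on the SLC30A10 control alone, and its value against the second control is not given here. Of 11 hosts of small nucleolar RNAs with a TOP tract, 2 rose and 3 fell in the SLC30A10 knockout. This is 45.5% of the list, beside 41.4% of all tested genes. None of the 11 passed in the second knockout by edgeR or DESeq2, beside 13.7% of all tested genes by edgeR. At an unadjusted edgeR p under 0.05, 1 was higher and 1 lower.

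**Figure D5:**
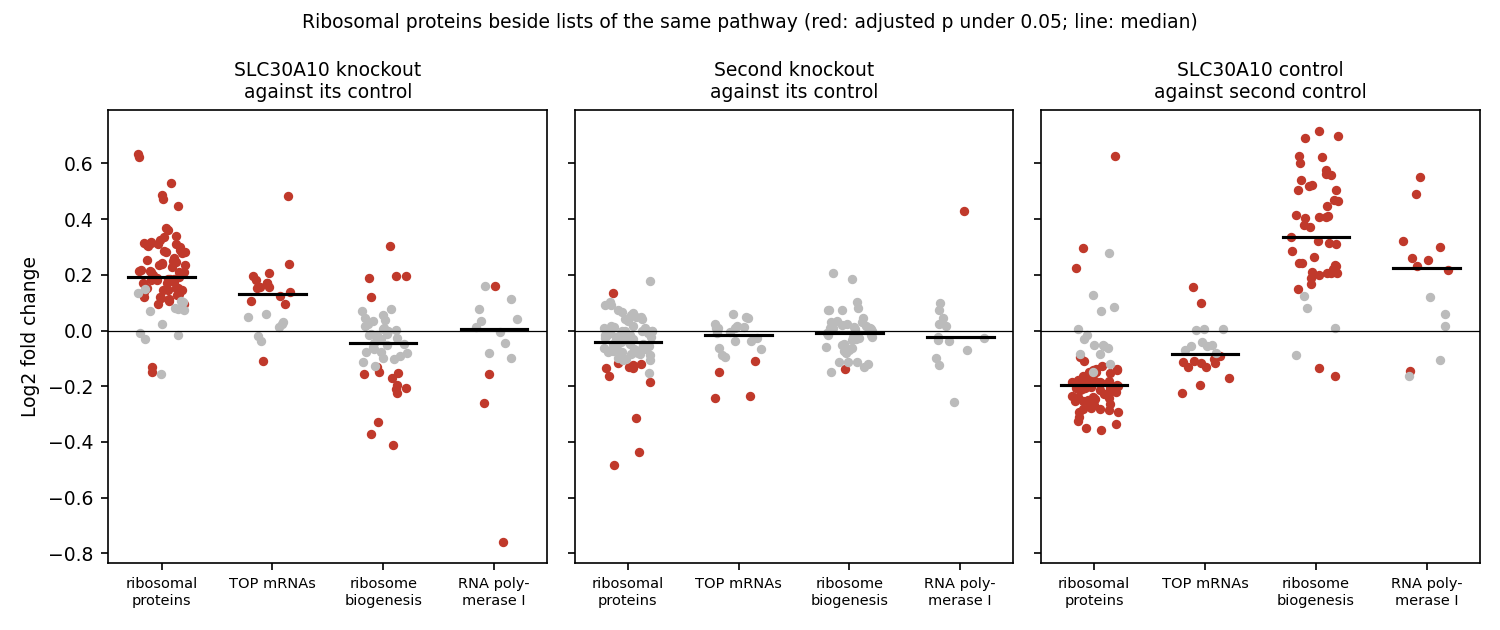
Log2 fold change of each tested gene of 4 lists (points, red where the adjusted p is under 0.05 and grey otherwise; black lines are medians) in the SLC30A10 knockout, in the second knockout and in the SLC30A10 control against the second control. In the third panel the ribosomal proteins have a median of -0.19 and the ribosome biogenesis genes a median of 0.34.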

How the data were processed

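Poly-A selected RNA of 16 HAP1 libraries was sequenced as read pairs, per the labels. The deposited table holds whole-number counts per gene symbol, and the authors also deposited a normalized signal, each count column divided by a constant, used here only as an alternative scaling. The submitters' processing notes name HISAT2, featureCounts, DESeq2 and the builds hg38 and GRCh38 without versions or settings. The annotation, use of strand and treatment of reads with several matches are not given in the sources used here.

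The expression filter of edgeR 4.0.16 (R 4.3.3; minimum count 10, minimum total 15) kept 15569 genes. Scaling used TMM, and 1 model with 4 group means held all libraries. Quasi-likelihood F tests compared each knockout with its control, both effects, and the control sets, with Benjamini-Hochberg adjustment over all tested genes and a threshold of 0.05. Log2 fold changes are given ± SE. The procedure was tested on simulated counts. Groups and replicate numbers came from genotype and title. Within groups, every pair of replicates differed by more than sampling noise, with a chi-square per degree of freedom of 1.64 to 6.83. A floor of 3 counts corresponded to 0.181 to 0.187 CPM and covers counting error only.

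The genes described and the lists were chosen with earlier results of these data known. Named were the 8 largest rises and 8 largest falls past the threshold in each knockout, the 5 largest each way in the difference and between the control sets, the 3 highest and 3 lowest levels per length, paralogs with their partners, and from each list the genes with the smallest adjusted p. RPS6, RPS24, RPSA and RPLP0 were added after their values were seen. Positions, neighbours (10 tested genes on each side, fewer for RPL8 and RPL35A) and start sequences came from RefSeq, GRCh38.p14. Lengths came from GENCODE: the shortest principal coding transcript of each gene was used, a choice made after the levels were seen, because earlier choices (the longest transcript, then the one with the lowest RefSeq number) gave very long transcripts for some ribosomal protein genes. Levels per length and the length correction depend on it. Alternatives were other scalings, filters and thresholds, DESeq2 1.42.0, fits of the 8 libraries compared, a replicate block, other control sets, and leaving out each library. The deposited scaling, the exchange of control sets, summed copies, and the length and GC corrections were chosen after seeing the data. The gene deleted in the second knockout and a few single genes are not reported here by name, and the latter stay in all counts, medians and fits.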

Additional observations from a re-analysis of the deposited data

Results flagged for a closer look

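Over 27 named ribosomal protein genes and their summed share of counts, 4 of 112 groups of libraries held 1 library far from the other 3, where chance would give about 5.6. The gap to the nearest library divided by the range was 0.898 for RPS10 in replicate 4 of the SLC30A10 knockout, at 14.3 CPM beside 10.9 to 11.2 CPM. It was 0.831 for RPS23 in replicate 3 of that knockout, at 1049.6 CPM beside 1074 to 1079 CPM. For RPS27 in replicate 1 of that knockout it was 0.832, at 142 CPM beside 119.8 to 123 CPM. For RPLP1 in replicate 2 of the second knockout it was 0.939, at 2445 CPM beside 2546 to 2553 CPM.

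For 21 of these 27 genes the effects of the knockouts differed by the test of the difference itself (edgeR adjusted p under 0.05), with the effect in the SLC30A10 knockout the higher one. Many of these genes were named for large changes in the same libraries, so a high count was built in. Of all tested genes, 31.3% passed this test. Each difference also includes the gap between the control sets. The log2 differences were 0.64 for RPS4X, 0.62 for RPL23A, 0.59 for RPL10, 0.58 for RPL39, 0.56 for RPS10, 0.53 for RPS3A, 0.52 for RPS23 and 0.50 for RPL39L. They were 0.49 for RPS27, 0.47 for RPS12, 0.43 for RPL41, 0.41 for RPS18, and 0.37 for RPL36A and RPL22. The others were 0.30 for RPL26, 0.28 for RPL7, 0.26 for RPL3 and RPLP2, 0.25 for RPLP1, 0.24 for RPS20 and 0.18 for RPL11.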

How the results depend on the processing

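Among the alternatives run, the counts and medians moved most with the control libraries. In the SLC30A10 knockout the counts were 27 higher and 1 lower with the control sets pooled (median 0.10), and 19 and 9 with the control sets exchanged (median 0.020). Of all 15569 tested genes, 5004 passed when pooled and 6903 when exchanged. In the second knockout the counts were 4 and 2 when pooled (median 0.054), and 56 and 8 when exchanged (median 0.15). There 2958 and 7445 of all tested genes passed. At an adjusted p under 0.01, no gene was lower in the SLC30A10 knockout (0), and 0 were higher and 6 lower in the second knockout. With only the 8 libraries compared, 7 were lower there. With median-of-ratios size factors, with ribosomal protein genes left out of TMM, or with a mean count of at least 50, 8 were lower there. Without a filter on low counts, or with the length trend removed, 2 were higher there. The shares of counts became 5.45%, 6.21%, 6.23% and 6.09% with pseudogenes and copies in the SLC30A10 control, SLC30A10 knockout, second control and second knockout, and 5.42%, 6.18%, 6.19% and 6.07% without the 10 most abundant other entries.

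Leaving out each library gave 56 to 66 higher and 0 to 2 lower genes in the SLC30A10 knockout, 0 to 5 higher and 6 to 13 lower in the second knockout, 55 to 63 higher in the difference, and 2 to 4 higher and 49 to 66 lower between the control sets.

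The deviations of same-numbered libraries correlated weakly across genes, with single values from -0.103 to 0.116. The means were -0.0318, 0.0472 and 0.0179 in the SLC30A10 experiment, the second experiment and between the control sets. In the same order, 0, 1 and 3 of 4 pairs correlated best with their own number. With the replicate number as a block, the counts were 69 higher and 2 lower, 2 and 7, and 5 and 60, and 62 and 0 for the difference.

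Of 1674 single-gene results for genes named by rule under the alternatives, 1535 kept direction and call, 121 lost the call and 18 turned. With the control sets exchanged, the turned values in the second knockout were 0.15 for RPS27, 0.19 for RPS3A, 0.027 for RPS20, 0.084 for RPLP2, 0.065 for RPLP1, 0.076 for EEF1A1, 0.025 for EFTUD1, 0.00495 for IPO7, -0.039 for EIF4EBP1 and -0.10 for LARP1. RPLP0, RPS6 and RPSA, outside that rule, turned too, to 0.14, 0.13 and 0.067. In the SLC30A10 knockout they were -0.037 for RPL3, -0.026 for RPS27, 0.11 for UTP20, 0.23 for POLR1A, 0.10 for UBTF, 0.073 for LARP1 and 0.14 for SNHG8. With the control sets pooled, RPS3A in the second knockout was at 0.00016. The causes were not tested.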
